A study of Mus musculus with 2 samples.

Results

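The 31 genes described here encode the machinery of glycolysis and a small set of proteins linked to low oxygen: 2 glucose transporters, 18 core enzymes that turn glucose into pyruvate and lactate, 2 lactate transporters, 4 regulators and 5 hypoxia-linked proteins. They were taken by symbol from the 32285 genes of the deposited count matrices, and all 31 were found in both. Expression was measured in single CD8 T cells (CD45+ TCRB+ CD8a+) sorted from mammary adipose tissue of C57BL/6 mice. One library came from mice labelled Multiparous (parous below), meaning several pregnancies, and the other from mice labelled Virgin. Each group was 1 library, each pooled at least 5 mice, and neither group was treated. Ages and the time since the last litter are not given in the labels.

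Glycolysis splits glucose into pyruvate in the cytosol, and lactate dehydrogenase can turn that pyruvate into lactate and so renew the cofactor that glycolysis uses. Resting naive T cells run this pathway slowly, and activated T cells raise it when they grow and divide. The transcription factor encoded by Hif1a, which is stabilised when oxygen is low, and the growth regulator Myc both act on many of these genes. Hypoxia-inducible factors bind DNA at a short core motif, and Myc binds at the E-box CACGTG.

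Depth is given in UMIs, molecular identifiers that each tag a single captured RNA. The deposited matrices held 14676415 UMIs in 4927 parous barcodes and 20166425 UMIs in 2526 virgin barcodes. After filtering, 3019 parous and 2511 virgin cells remained, of which 2991 and 2502 lay in the clusters analysed as T cells. Cells in the cycling cluster were kept apart throughout: 59 parous cells (1.97%) and 146 virgin cells (5.84%), with a median depth of 8187 and 17844.5 UMIs. The 2932 parous and 2356 virgin non-cycling cells had medians of 4070.0 and 6843.5 UMIs. At least 1 Cd3e UMI was present in 95.02% of these parous and 98.4% of these virgin cells, and 1 of Cd8a in 76.2% and 86.3%. The libraries shared 14 kept barcodes. With 1 library per group no test was possible, and the exact 95% intervals below describe counting error alone and leave out any spread between mice or preparations. Levels are in CPM, a gene's UMIs over the total of the same cells times 1e6, and a gene was called higher or lower when the groups were at least 1.5-fold apart with at least 10 UMIs in both together. In summed counts, fewer expressing cells and less RNA per cell cannot be told apart.

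The other cells kept fell into 11 further clusters, numbered here because some names rest on few markers. Cluster 0 was naive or central memory-like, clusters 4 and 7 were tissue-resident memory-like, clusters 2 and 5 were Gzmk or exhausted-like, cluster 8 was circulating effector-like, cluster 11 was interferon-responding-like and cluster 3 was NK or innate-like with Ly49 receptor genes. Cluster 1, led by Gzmm with Ly6c2 and Eomes, cluster 6, led by Gzmc, and cluster 9, led by Fabp4 and low in RNA (medians of 1286 parous and 3102 virgin UMIs), stayed unnamed. Cluster 6 had 9 tissue-resident memory-like markers, but none of them was among its 10 leading genes, which included Fcer1g and Tyrobp. Cluster 9 had Cd3e in 69.4% and Cd8a in 51.3% of its cells, close to the removed cluster of other cells (67.6% and 54.1%), and stayed in because it held 1 marker of another cell type where 3 were needed for removal. Without it the counts of higher and lower members between libraries, 2 and 2, were as given below. Clusters 5 and 6 were nearly all parous, with 353 and 314 parous cells against 19 and 1 virgin cells. Cd8b1 was detected in 22.9% of the parous cells of cluster 6. Cluster 0 held 16.3% of parous T cells and 39.2% of virgin T cells. The member genes took no part in the clustering.

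The promoters of Gapdh, Ldha, Slc16a3 and Pdk1 are shown because these genes carry the patterns described below: Gapdh and Slc16a3 were at least 1.5-fold higher in cycling cells of both libraries, Ldha was so in the virgin library, and Pdk1 was lower in virgin cycling cells. Each is the RefSeq window from 250 bases before to 50 bases after the start, on GRCm38.p6, read 5′ to 3′ on the gene's strand. For Gapdh, Ldha and Slc16a3 the RefSeq start lies inside the span given below, which covers all annotated transcripts. Capitals mark the hypoxia-response core motifs ACGTG and GCGTG on either strand, and the E-box CACGTG, which contains ACGTG.
Gapdh, chr6:125165724-125166023, minus strand: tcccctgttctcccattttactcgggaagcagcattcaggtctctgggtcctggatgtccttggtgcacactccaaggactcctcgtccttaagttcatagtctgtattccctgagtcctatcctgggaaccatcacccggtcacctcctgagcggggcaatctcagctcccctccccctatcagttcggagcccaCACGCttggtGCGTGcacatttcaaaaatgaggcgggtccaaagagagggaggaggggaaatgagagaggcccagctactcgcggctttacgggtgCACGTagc
Ldha, chr7:46845554-46845853, plus strand: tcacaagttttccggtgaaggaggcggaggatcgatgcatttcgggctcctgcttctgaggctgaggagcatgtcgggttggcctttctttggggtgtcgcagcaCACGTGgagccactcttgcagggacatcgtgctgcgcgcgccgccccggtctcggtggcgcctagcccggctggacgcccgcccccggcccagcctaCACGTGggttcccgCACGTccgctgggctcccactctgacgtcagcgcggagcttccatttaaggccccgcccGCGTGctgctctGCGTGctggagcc
Slc16a3, chr11:120948817-120949116, plus strand: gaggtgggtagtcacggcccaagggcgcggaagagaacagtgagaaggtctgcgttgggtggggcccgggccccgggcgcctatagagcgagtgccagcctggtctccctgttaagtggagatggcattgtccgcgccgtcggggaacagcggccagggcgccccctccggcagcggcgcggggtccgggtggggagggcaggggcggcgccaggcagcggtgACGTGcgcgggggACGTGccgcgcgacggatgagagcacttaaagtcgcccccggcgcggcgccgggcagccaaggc
Pdk1, chr2:71872974-71873273, plus strand: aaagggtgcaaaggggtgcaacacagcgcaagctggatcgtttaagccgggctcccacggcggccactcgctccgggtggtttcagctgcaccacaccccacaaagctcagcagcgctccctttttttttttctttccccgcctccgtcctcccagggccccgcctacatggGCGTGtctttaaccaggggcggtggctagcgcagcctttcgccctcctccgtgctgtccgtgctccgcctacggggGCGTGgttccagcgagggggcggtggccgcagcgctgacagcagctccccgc
Counted on both strands, the Ldha window held 7 matches to the core motifs, the Gapdh window 3, and the Slc16a3 and Pdk1 windows 2 each. The Ldha window held 2 E-boxes, and each of them reads ACGTG on both strands and so gave 2 of its core matches. Of the 30 members with a promoter in the table (all but Slc2a3), 24 (80%) held ACGTG or GCGTG, against 43.8% of all 32851 windows. CACGTG was in 6 member windows (20%), against 7.15% of all windows. The member windows were also richer in CG dinucleotides, with a median of 20 against 7 in all windows, and both core motifs contain CG. The part of CG content in the difference was not tested. A match is a string of letters and not a binding site, and these promoters were picked after the expression values were seen.

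Outside the cycling cells, the glycolytic genes stood at nearly the same level in the parous and the virgin library. Among the 30 members with enough UMIs, parous cells had 2 higher and 2 lower by 1.5-fold or more, and 26 lay between. The background over 13661 genes was 8.36% higher and 16% lower, so neither count stands above it. The median log2 ratio of parous over virgin was -0.13 for the members and -0.12 for all genes. The 18 core enzymes summed to 2329 CPM in parous and 2525 CPM in virgin non-cycling cells, a log2 ratio of -0.12 (interval -0.14 to -0.09). The log2 scaling factor from the median ratio of all genes was -0.10, and relative to it the core sum stood at -0.02. The remaining member, Eno2, the neuronal form of enolase, had 3 parous and 5 virgin UMIs and was not measured.

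**Figure D1:**
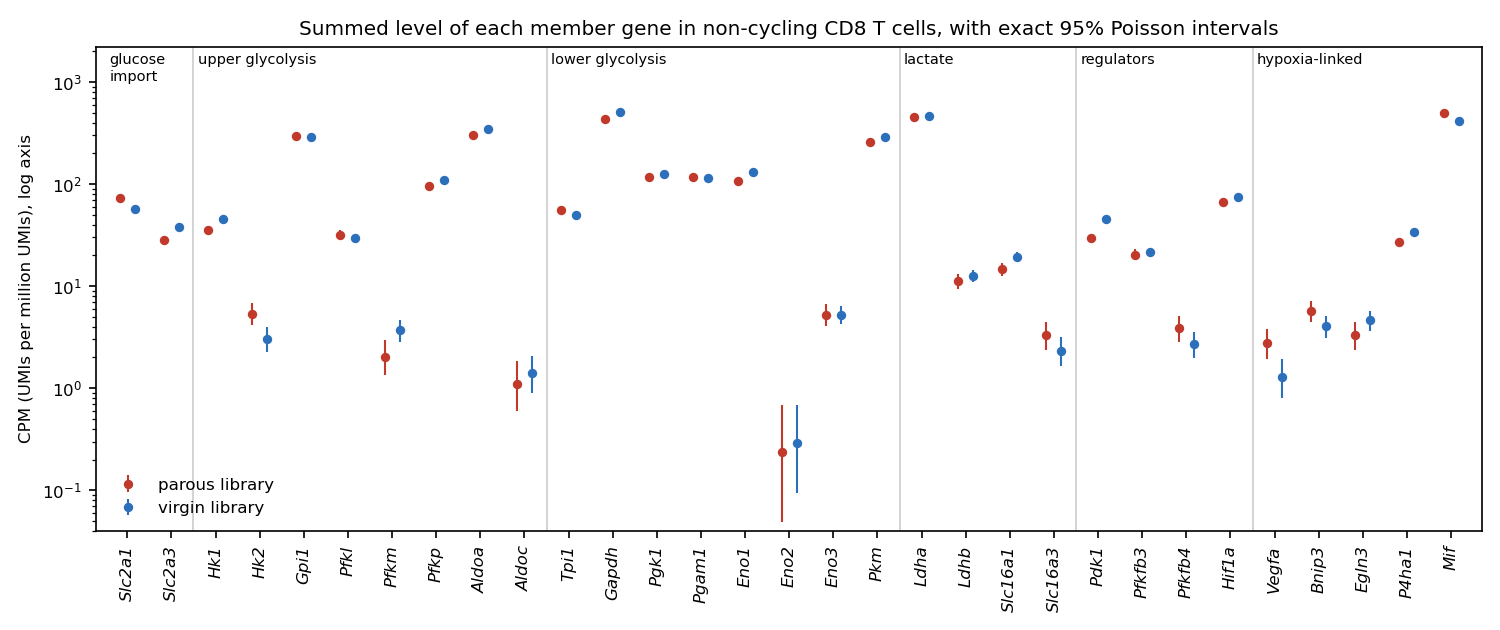
Summed level of each of the 31 member genes in non-cycling CD8 T cells of the parous (red, left of each pair) and virgin (blue) library, in CPM on a log axis, with exact 95% Poisson intervals. Most pairs of points nearly coincide, and the visible gaps are at Hk2, Vegfa, Pfkm and Pdk1.

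Of the glucose transporters (positions here and below are on GRCm38), Slc2a1 was the higher and Slc2a3 the lower in the parous library. Slc2a1 (GLUT1, ENSMUSG00000028645, chromosome 4, 119108711 to 119137983), the main glucose importer of activated T cells, stood at 72.6 CPM in parous cells (925 UMIs, interval 68.0 to 77.4) and 56.6 CPM in virgin cells (971 UMIs, interval 53.1 to 60.3), a log2 ratio of 0.36. Slc2a3 (GLUT3, ENSMUSG00000003153, chromosome 6, 122727809 to 122801640), a high-affinity importer, stood at 28.2 CPM in parous cells (interval 25.3 to 31.2) and 38.1 CPM in virgin cells (interval 35.2 to 41.1), a log2 ratio of -0.43. Neither reached 1.5-fold, but the intervals did not overlap. Slc2a1 made up 72.0% of the UMIs of the pair in parous cells (interval 69.5 to 74.5%) and 59.8% in virgin cells (interval 57.4 to 62.2%).

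Hexokinases trap glucose in the cell by phosphorylation, and the inducible form Hk2 was higher in the parous library while the constitutive form Hk1 was not. Hk2 (ENSMUSG00000000628, chromosome 6, 82725025 to 82774454) stood at 5.33 CPM in parous cells (68 UMIs, interval 4.14 to 6.76) and 3.03 CPM in virgin cells (52 UMIs, interval 2.26 to 3.98), 1.75-fold higher. Hk1 stood at 35.6 and 45.5 CPM. Hk2 made up 13.03% of the hexokinase UMIs in parous cells (interval 10.3 to 16.2%) and 6.24% in virgin cells (interval 4.70 to 8.11%). With each cell thinned to 1400 UMIs, the share of cells with Hk2 was 0.891% in the parous library (25 of 2807 cells, interval 0.577 to 1.31%) and 0.555% in the virgin library (13 of 2343 cells, interval 0.296 to 0.947%). These shares could not be told apart at this depth. The unthinned shares were 2.11% and 1.99%. No cell type here should lack glycolytic enzymes, so no background share was available. Thinning left out 125 parous and 13 virgin non-cycling cells.

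The phosphofructokinase genes, which encode the main control step, differed among themselves. Pfkm, the muscle form (ENSMUSG00000033065, chromosome 15, 98092589 to 98132451), was the lower in parous cells at 2.04 CPM (26 UMIs, interval 1.33 to 2.99), against 3.67 CPM in virgin cells (63 UMIs, interval 2.82 to 4.70). The forms with far more UMIs were closer: Pfkp stood at 95.3 and 109.6 CPM, and Pfkl had a log2 ratio of 0.11. Thinned to 1400 UMIs, Pfkm appeared in 0.356% of parous cells and in 0.341% of virgin cells, a difference in the other direction, and no order is read from these shares. Of the rest of upper glycolysis, Gpi1 had a log2 ratio of 0.01, Aldoa -0.18 and Aldoc -0.33 with 14 parous and 24 virgin UMIs.

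In lower glycolysis all 7 measured genes lay within 1.5-fold, with log2 ratios between -0.28 (Eno1) and 0.15 (Tpi1). Gapdh (ENSMUSG00000057666, chromosome 6, 125161715 to 125166467), the enzyme that couples glycolysis to the cofactor NAD, stood at 432.9 CPM in parous cells (interval 421.5 to 444.4) and 510.6 CPM in virgin cells (interval 499.9 to 521.4), a log2 ratio of -0.24. Pkm (ENSMUSG00000032294, chromosome 9, 59656368 to 59679375), the pyruvate kinase that makes pyruvate, stood at 260.0 and 289.0 CPM, a log2 ratio of -0.15. Tpi1 (ENSMUSG00000023456, chromosome 6, 124810586 to 124814296), triose phosphate isomerase, stood at 55.1 CPM in parous and 49.7 CPM in virgin cells. Without clusters 5 and 6, which came nearly all from the parous library, Tpi1 turned to -0.02. Eno1 has a near-identical retrocopy with a row of its own (1088 parous and 2562 virgin UMIs), and Gapdh and Pgk1 have processed copies, so reads may be split among copies and these values are uncertain to that extent.

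In the lactate branch Ldha was level and the transporter Slc16a1 was lower in parous cells, short of 1.5-fold. Ldha (ENSMUSG00000063229, chromosome 7, 46841475 to 46855627), the lactate dehydrogenase subunit that favours lactate, stood at 456.8 CPM in parous cells (interval 445.1 to 468.7) and 460.0 CPM in virgin cells (interval 449.9 to 470.2), a log2 ratio of -0.01 that became 0.09 under the scaling by the median ratio. Ldha made up 97.6% of the lactate dehydrogenase UMIs in parous and 97.4% in virgin cells. Slc16a3 (MCT4, ENSMUSG00000025161, chromosome 11, 120948480 to 120960868), a lactate exporter of glycolytic cells, stood at 3.29 CPM (42 UMIs, interval 2.37 to 4.45) and 2.33 CPM (40 UMIs, interval 1.67 to 3.18), with overlapping intervals. Slc16a1 (MCT1), which moves lactate in either direction, stood at 14.6 CPM in parous cells (interval 12.6 to 16.8) and 19.4 CPM in virgin cells (interval 17.3 to 21.6), a log2 ratio of -0.41 (interval -0.68 to -0.15).

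Among the regulators, Pdk1 was lower in the parous library. It encodes a kinase that keeps pyruvate out of the mitochondrial pyruvate dehydrogenase and is a classic hypoxia target (ENSMUSG00000006494, chromosome 2, 71873224 to 71903858). Pdk1 stood at 29.4 CPM in parous cells (375 UMIs, interval 26.5 to 32.5) and 45.7 CPM in virgin cells (784 UMIs, interval 42.6 to 49.0), a log2 ratio of -0.64. It was highest in the naive or central memory-like cluster 0, which held a larger share of virgin cells. With each state given the same weight in both libraries, its mean share of their cells, the log2 ratio was -0.24. That weighting took only states with at least 20 cells in each library, which leaves out clusters 5 and 6. Without clusters 5 and 6 and with no weighting the log2 ratio of Pdk1 was -0.53, which also falls short of 1.5-fold. Hif1a (ENSMUSG00000021109, chromosome 12, 73901375 to 73947530) stood at 66.6 and 74.7 CPM, a log2 ratio of -0.17. Pfkfb3, which makes the activator of phosphofructokinase, had a log2 ratio of -0.08, which is above 0 under the scaling by the median ratio, and its relative Pfkfb4 0.52 with 49 parous and 46 virgin UMIs.

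Of the hypoxia-linked genes, Vegfa was higher and the other 4 stayed within 1.5-fold. Vegfa (ENSMUSG00000023951, chromosome 17, 46016993 to 46032369), the vascular growth factor, stood at 2.75 CPM in parous cells (35 UMIs, interval 1.91 to 3.82) and 1.28 CPM in virgin cells (22 UMIs, interval 0.804 to 1.94), 2.12-fold higher. These UMIs came from few cells: 5 cells held 31.4% of the parous and 45.5% of the virgin UMIs. In the 28 parous and 9 virgin cells of the cluster of other cells, Vegfa stood at 11.2 and 81.1 CPM, and whether RNA from such cells added to the T cell values was not tested. Bnip3 (ENSMUSG00000078566, chromosome 7, 138890836 to 138909519), a mitophagy protein, stood at 5.65 CPM in parous cells (72 UMIs, interval 4.42 to 7.11) and 4.02 CPM in virgin cells (69 UMIs, interval 3.13 to 5.09). Its log2 ratio was 0.49, and 0.19 without clusters 5 and 6, and it was below 0 in all 3 clusters where it could be compared. Egln3, an oxygen sensor that marks hypoxia-inducible factors for decay, had a log2 ratio of -0.48 with 42 and 79 UMIs, and P4ha1, a collagen hydroxylase, -0.34. Mif, a cytokine, stood at 499.5 and 419.1 CPM, a log2 ratio of 0.25 (interval 0.20 to 0.30).

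**Figure D2:**
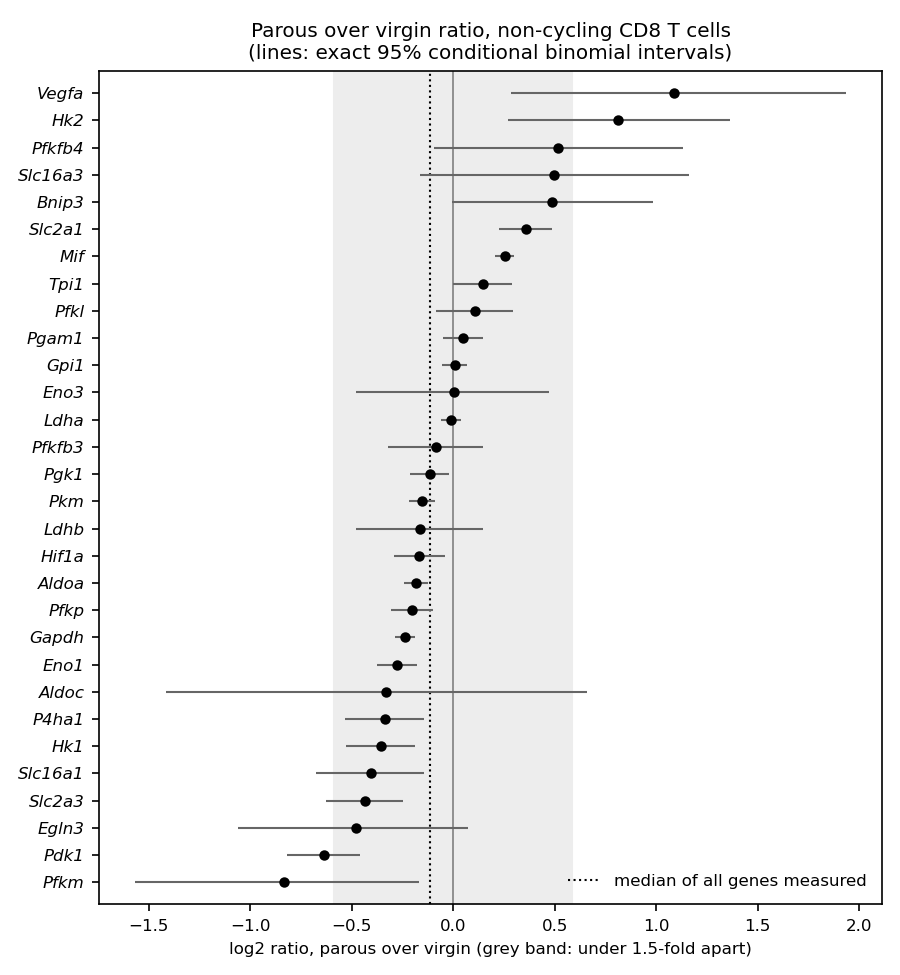
Log2 ratio of parous over virgin for the 30 measured members in non-cycling CD8 T cells, with exact 95% intervals, the median of all genes (dotted line, -0.12) and the zone under 1.5-fold (grey). Only Vegfa and Hk2 lie beyond the zone on the higher side, and only Pdk1 and Pfkm on the lower side.

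Within single clusters a few members kept one direction. The 7 non-cycling clusters with at least 50 cells in each library were compared by number. Slc2a1 was above 0 in 7 of 7, with log2 ratios between 0.05 and 0.90, and Mif in 7 of 7, between 0.00 and 0.53. Hk2 was above 0 in the 5 clusters where it could be measured, between 0.51 and 1.45, and its interval lay above 0 in cluster 3, the NK or innate-like cells (19 parous and 7 virgin UMIs). Gapdh was below 0 in 7 of 7, between -0.62 and -0.04, and its interval lay below 0 in 6 of them. Aldoa was below 0 in 7 of 7, between -0.49 and -0.08, and Pfkp in 7 of 7. Among these 7 clusters the interval lay above 0 in 2 for Slc2a1 and 4 for Mif, and below 0 in 4 for Aldoa and 1 for Pfkp. Relative to the median ratio of all genes in each cluster, Slc2a1 and Mif stayed above in 7, Gapdh and Aldoa stayed below in 7 and Pfkp in 6. Pdk1 had no single direction, with 3 clusters above 0 and 4 below. Slc2a3 also had none, with 2 above 0 and 5 below, between -0.77 and 0.64, and its interval lay below 0 in 2. Relative to the median ratio of all genes, Slc2a3 stood above in 3 clusters and below in 4. 

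Cluster 0 had 4 of 28 members higher and 2 lower by 1.5-fold or more, beside 6.02% and 18.5% of all genes. In cluster 1 it was 3 and 3 of 29, beside 5.85% and 16.8%. In cluster 2 it was 2 and 1 of 22, beside 7.53% and 19.4%, and in cluster 3 it was 2 and 4 of 29, beside 6% and 19.6%. Cluster 7 had 2 higher and 2 lower of 24, beside 11.4% and 21.8%, cluster 8 had 2 and 2 of 21, beside 14.7% and 22.5%, and cluster 9 had 2 and 3 of 20, beside 17.3% and 21.4%.

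The core sum had log2 ratios of parous over virgin between -0.23 (clusters 3 and 8) and -0.04 (clusters 7 and 9). The interval lay below 0 in clusters 0, 1, 2, 3 and 8, and included 0 in cluster 7 (-0.13 to 0.06) and cluster 9 (-0.20 to 0.11). Relative to the median ratio of all genes the difference was -0.31 in cluster 8 and between -0.09 and -0.0024 in the other 6.

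In the core sum the states differed from one another more than the libraries did. The naive or central memory-like cluster 0 held the least core RNA, at 1759 CPM in the parous (interval 1705 to 1815) and 1966 CPM in the virgin library (interval 1934 to 1998). The P2rx7 and Ccr8 cluster 7 of tissue-resident memory-like cells stood at 3084 and 3166 CPM, and the Gzmk cluster 2 at 2987 and 3200 CPM. The other cluster named tissue-resident memory-like, cluster 4, stood at 2306 CPM in the parous library. Cluster 6, with Gzmc, was near the low end at 2122 CPM. Per cell, thinned to 1400 UMIs, the median number of core UMIs was 2 in parous and 3 in virgin cells of cluster 0, and 4 and 5 in cluster 7. At least 6 core UMIs were found in 4.55% of parous cells and 6.02% of virgin cells of cluster 0, and in 22.7% and 28.6% of those of cluster 7.

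**Figure D3:**
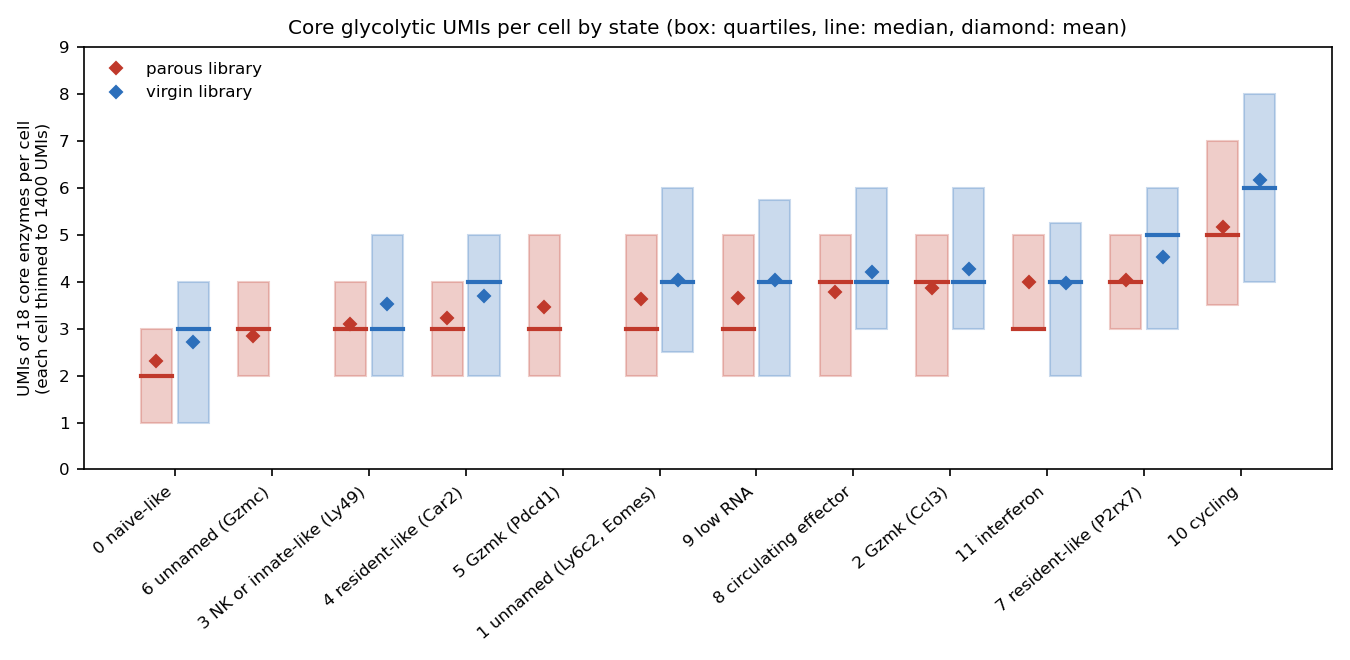
UMIs of the 18 core enzymes per cell in each cluster, each cell thinned to 1400 UMIs, for the parous (red, left) and virgin (blue) library, with boxes for quartiles, lines for medians and diamonds for means. Cluster 0 lies lowest and the cycling cluster highest, with medians of 5 parous and 6 virgin UMIs. Cells under 1400 UMIs are left out. In the low-RNA cluster 9 this kept 67 parous cells and dropped 94, and kept 66 virgin cells and dropped 5.

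Single members gave each state its own profile. Slc2a3 was lowest or nearly so in cluster 0 (17.04 CPM parous, 15.9 virgin), and stood at 65.9 and 113.9 CPM in cluster 7 and 77.3 and 89.4 CPM in the circulating effector-like cluster 8. Slc2a1 varied less, with a 1.80-fold span over the non-cycling states of the parous and 1.92-fold of the virgin library, against 5.35-fold and 7.17-fold for Slc2a3. Pfkp stood at 50.2 and 55.8 CPM in cluster 0 and 184.6 and 194.6 CPM in cluster 8. Ldha was highest among the non-cycling states in cluster 7, at 729.2 and 696.7 CPM, and lowest in cluster 0, at 359.6 and 376.2 CPM. Hif1a stood at 50.2 and 54.3 CPM in cluster 0 and 116.7 and 107.8 CPM in cluster 2. The interferon-responding-like cluster 11 of the virgin library had 169.3 CPM of Hif1a (interval 135.4 to 209.1).

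Pdk1, P4ha1, Ldhb and Slc16a1 were not low in cluster 0. Pdk1 was highest in cluster 0, at 59.4 CPM in the parous (interval 49.9 to 70.3) and 74.8 CPM in the virgin library (interval 68.7 to 81.4), and lowest in cluster 8, at 8.59 CPM (2 UMIs) and 7.12 CPM (9 UMIs). In the virgin library the interval of cluster 0 lay clear of the next state. P4ha1 stood at 42.8 and 46.0 CPM in cluster 0 and at 19.8 and 13.4 CPM in cluster 7. Ldhb, the lactate dehydrogenase subunit that favours pyruvate, stood at 16.2 and 16.6 CPM in cluster 0 and at 5.30 and 2.74 CPM in cluster 3. Slc16a1 stood at 20.1 and 21.9 CPM in cluster 0, the highest of the virgin states and the third highest of the parous non-cycling and cycling states, after clusters 9 and 10. For most members the intervals of neighbouring states overlapped, so the order is firm only between states far apart.

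A few states had a high value of a single member. Cluster 6, with 314 parous cells and 1 virgin cell, had 114.9 CPM of Tpi1 (151 UMIs in 105 cells, interval 97.3 to 134.7), against at most 76.2 CPM in the other non-cycling states of the parous library. The same cluster had 13.7 CPM of Bnip3 (18 UMIs, interval 8.11 to 21.6), beside 13.2 CPM in cluster 7. Its Vegfa stood at 7.61 CPM (10 UMIs in 7 cells), under the 12.0 CPM of parous cluster 9 (interval 2.48 to 35.2). Hif1a (35.8 CPM) and Slc2a3 (14.5 CPM) of cluster 6 were the lowest of the library's states. Aldoc, the brain-type aldolase, was concentrated in cluster 7, with 5 of 14 parous and 11 of 24 virgin non-cycling UMIs, or 10.98 and 14.7 CPM. In the cluster of other cells Aldoc stood at 122.9 CPM parous and 66.8 CPM virgin, and whether RNA from such cells added to these few UMIs was not tested.

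**Figure D4:**
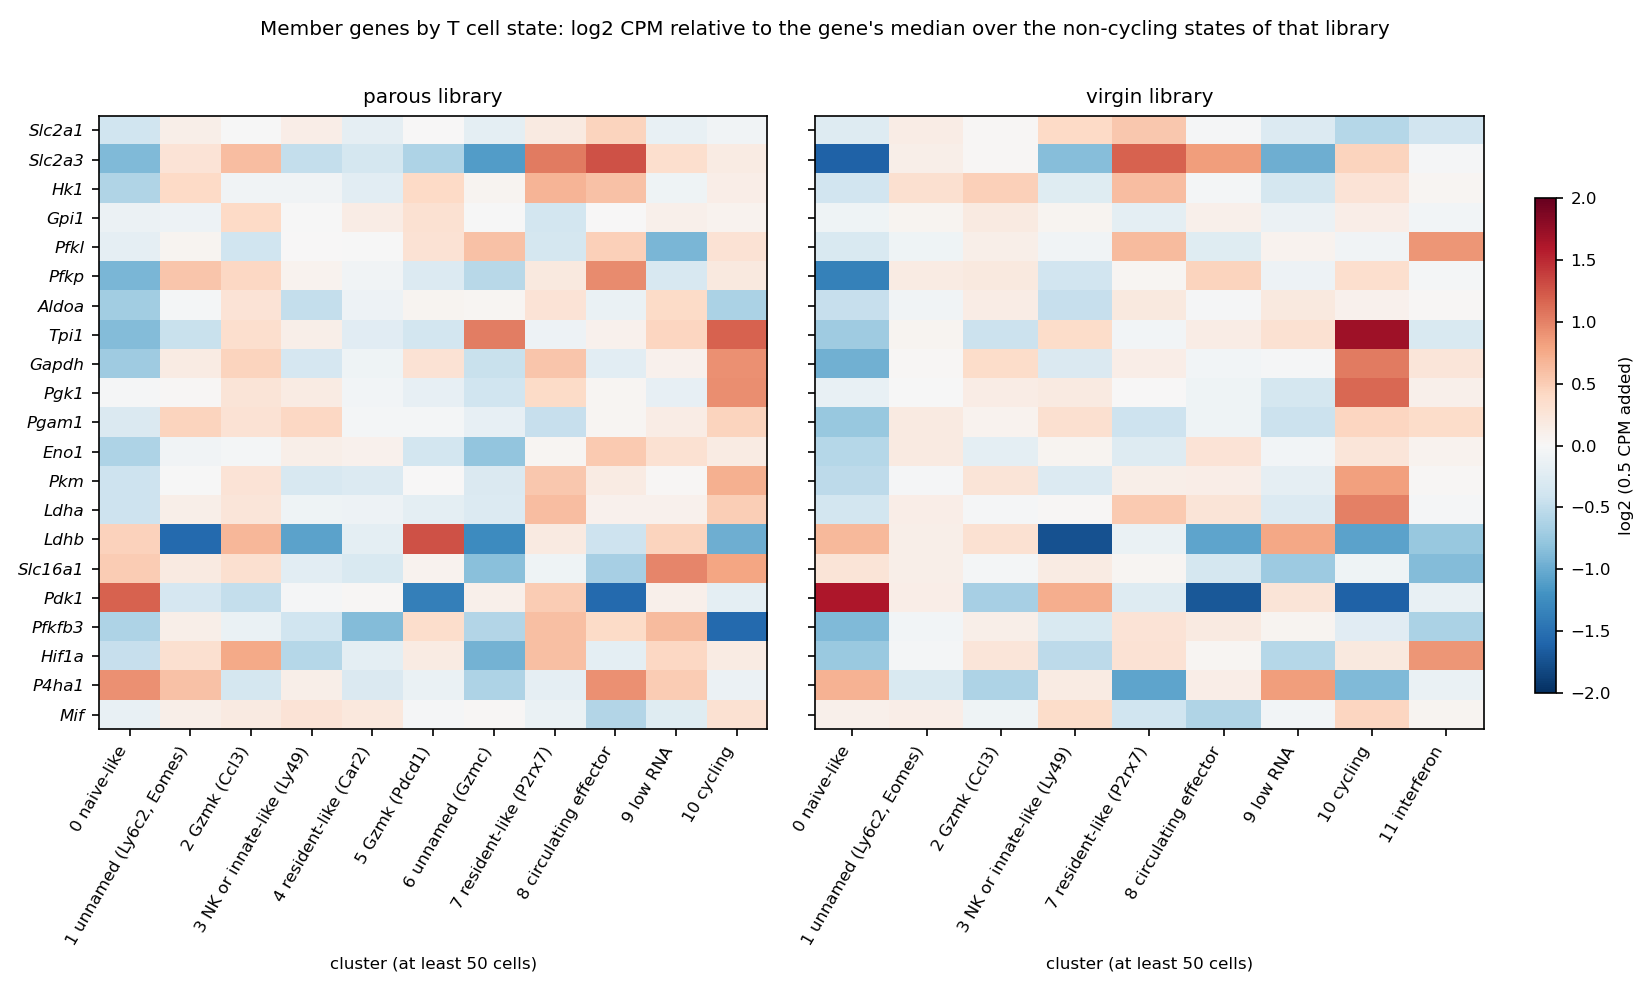
Members with at least 300 UMIs (rows) by cluster with at least 50 cells (columns), parous panel left and virgin panel right, coloured by log2 CPM relative to the gene's median over that library's non-cycling states, with 0.5 CPM added. Cluster 0 is blue for most enzymes and red for Pdk1, P4ha1 and Ldhb, and the cycling cluster is red for Tpi1, Gapdh, Pgk1, Pkm and Ldha.

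Cycling cells had more RNA of lower glycolysis than the pooled non-cycling cells of the same library. In the parous library cycling cells had 8 of 30 members higher and 6 lower by 1.5-fold or more, against 26.9% higher and 19.5% lower over all 12083 genes measured. In the virgin library 10 were higher and 5 lower, against 24.7% and 23.4% of 13077 genes. The members' median log2 ratio was 0.23 in the parous library and 0.39 in the virgin one, against 0.09 and 0.05 over all genes. Among parous cells 4 measured members (Pfkm, Aldoc, Pfkfb4 and Egln3) had 0 UMIs in the 59 cycling cells, where 3 UMIs would be 5.66 CPM, more than their non-cycling levels. Without these 4, 8 members were higher and 3 lower, with a median of 0.29. The counts over all members are thus close to the background, and the pattern lies in lower glycolysis, where 5 of 7 measured members were higher in parous and 6 of 7 in virgin cycling cells. Such a group was singled out after its values were known, so this is a description. Against single states, the parous cycling interval lay clear of the next state for Gapdh, but not for Tpi1, Pgk1 or Pkm. Parous Ldha was higher in cluster 7 (729.2 CPM) than in cycling cells (671.9 CPM). In the virgin library the cycling interval lay clear of the next state for Tpi1, Gapdh, Pgk1, Pkm and Ldha. Eno1 had its highest value in cluster 8 in both libraries.

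Tpi1, Slc16a3 and Bnip3 were at least 2-fold apart in both libraries. Tpi1 stood at 128.3 CPM in cycling (68 UMIs, interval 99.7 to 162.7) and 55.1 CPM in non-cycling parous cells, 2.35-fold higher. In virgin cells the Tpi1 levels were 189.8 CPM in cycling (531 UMIs, interval 174.0 to 206.7) and 49.7 CPM in non-cycling cells, a 3.82-fold difference. Slc16a3 stood at 7.55 CPM in cycling (4 UMIs, interval 2.06 to 19.3) and 3.29 CPM in non-cycling parous cells, where the interval of the ratio included no difference. In virgin cells it was 5.52-fold higher, with 12.9 CPM in cycling (36 UMIs, interval 9.01 to 17.8) and 2.33 CPM in non-cycling cells. The virgin value came from 27 of 146 cells, and the parous value from 4 cells. Bnip3 went the other way on few UMIs, with 1 and 5 UMIs in parous and virgin cycling cells, and both intervals included no difference.

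The high-count enzymes gave closer estimates. Gapdh stood at 864.4 CPM in cycling (interval 787.1 to 947.3) and 432.9 CPM in non-cycling parous cells, and at 1295 CPM (interval 1253 to 1338) and 510.6 CPM in the virgin library, log2 ratios of 0.999 and 1.34. Pkm had log2 ratios of 0.85 and 1.01, Pgk1 of 0.94 and 1.19, and Ldha of 0.56 and 1.09. Thinned to 1400 UMIs, Gapdh was present in 74.6% of cycling (interval 61.6 to 85.0%) and 43.7% of non-cycling parous cells (interval 41.8 to 45.5%). The same shares in the virgin library were 80% (interval 72.6 to 86.2%) and 47.1% (interval 45.1 to 49.2%). The unthinned shares over non-cycling cells were 76.3% parous and 90.3% virgin. Scaling by the median ratio of all genes took 0.19 off every parous and 0.16 off every virgin log2 ratio, and the 5 parous and 5 of the 6 virgin genes of lower glycolysis stayed past 1.5-fold. Without the naive or central memory-like cluster among the non-cycling cells, the Gapdh log2 ratios were 0.89 and 1.001.

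The upper steps showed little of this. Gpi1 had log2 ratios of 0.04 in parous and 0.14 in virgin cycling over non-cycling cells, and Hk1 of 0.12 and 0.30. Slc2a1 was at 0.00 in the parous library and -0.56 in the virgin one, while Slc2a3 was at 0.38 and 0.84. Aldoa was lower in parous cycling cells (-0.48, interval -0.77 to -0.22) and higher in virgin cycling cells (0.32, interval 0.22 to 0.40). Pfkp was at 0.21 and 0.73. Hif1a itself was at 0.23 (interval -0.27 to 0.67) and 0.48 (interval 0.29 to 0.67), short of 1.5-fold in both.

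Pdk1 was the member most below its non-cycling level in the virgin library, with 7.51 CPM in cycling (21 UMIs, interval 4.65 to 11.5) and 45.7 CPM in non-cycling cells, a log2 ratio of -2.57. Without the naive or central memory-like cluster it was -1.66. In the parous library Pdk1 stood at 22.6 CPM in cycling (12 UMIs, interval 11.7 to 39.6) and 29.4 CPM in non-cycling cells, a log2 ratio of -0.32 whose interval included 0 and which was 0.04 without that cluster. Ldhb (-1.37) and P4ha1 (-1.16) were also lower in virgin cycling cells. Ldha made up 99.2% of lactate dehydrogenase UMIs in parous and 99.5% in virgin cycling cells.

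**Figure D5:**
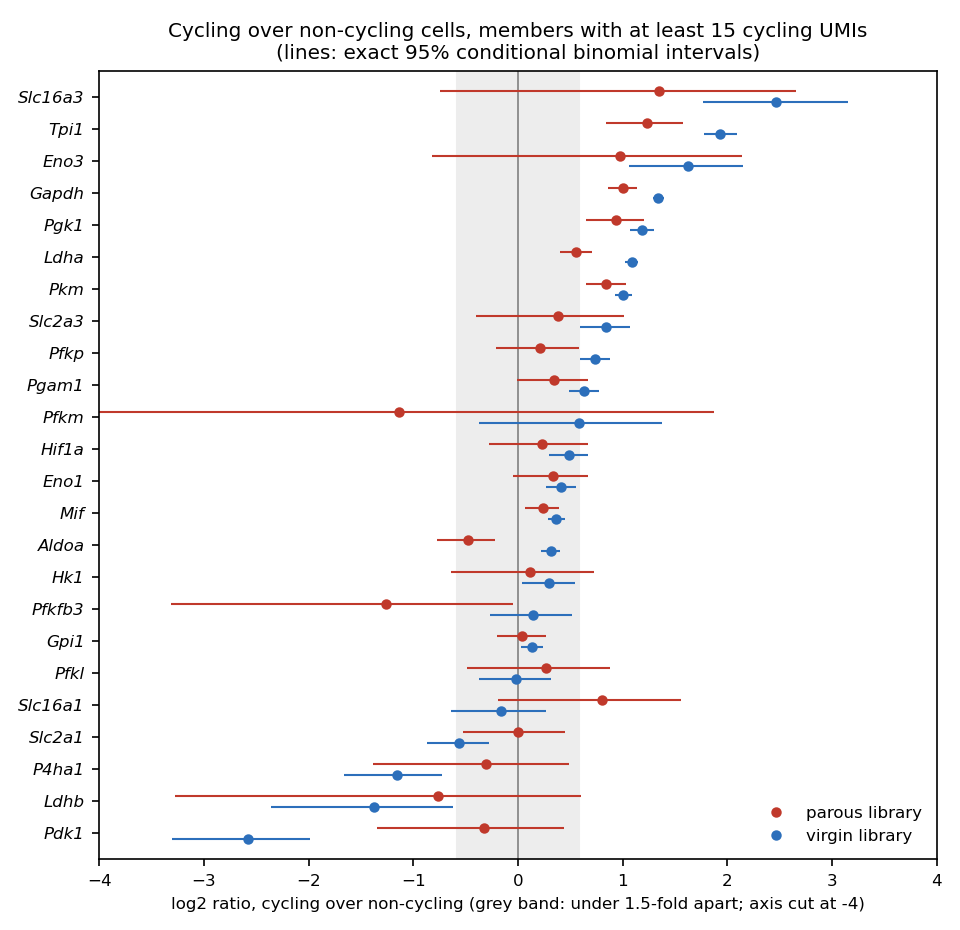
Log2 ratio of cycling over non-cycling cells in the parous (red, upper) and virgin (blue, lower) library for members with at least 15 cycling UMIs in both together, with exact 95% intervals and the zone under 1.5-fold in grey. Tpi1, Gapdh, Pgk1, Pkm, Eno3 and Slc16a3 lie above the zone in both libraries, the last pair with wide parous intervals that include 0, Pdk1 lies far below it in the virgin library, and Aldoa has opposite signs. The red Pfkm point is a fitted value for 0 UMIs in parous cycling cells.

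Cycling cells of the parous library held less core RNA than those of the virgin library. The core sum was 3358 CPM in parous (interval 3203 to 3517) and 4726 CPM in virgin cycling cells (interval 4646 to 4807), a log2 ratio of -0.49, and the median per cell at 1400 UMIs was 5 and 6 UMIs, with quartiles of 3.5 to 7 and 4 to 8. By 1.5-fold or more, parous cycling cells had 3 of 26 measured members higher and 8 lower, against 13.5% and 21.1% of all genes. Aldoa stood at 215.2 and 426.5 CPM, Slc2a3 at 35.9 and 67.9 CPM and Slc2a1, in the other direction, at 71.7 and 38.2 CPM. Pfkm and Egln3, among the 8 lower, had 0 parous UMIs, and their virgin levels of 5.36 and 4.65 CPM lie below what 3 UMIs would give. The virgin cycling cells were deeper, and their part in these ratios was not tested.

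Cycling cells held more UMIs each and made up a larger share of the virgin library, where they held more of the RNA. They held 3.99% of all T cell UMIs in the parous library, against 14.0% in the virgin library. Their share of the Tpi1 UMIs was 8.83% parous and 38.4% virgin, of Gapdh 7.66% and 29.3%, and of Slc16a3 8.70% and 47.4%. Over all T cells, cycling cells included, the log2 ratio of parous over virgin was -0.26 for Tpi1, -0.46 for Gapdh and -0.13 for Slc16a3, where the non-cycling cells gave 0.15, -0.24 and 0.50. Over all T cells 2 members were higher and 1 lower, against 8.61% and 17.4% of all genes.

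Neighbouring pathways were compared in the same non-cycling cells, where the background was 8.36% of genes higher and 16% lower and the all-gene median was -0.12. The pentose phosphate list had 0 of 7 genes at least 1.5-fold apart and a median log2 ratio of -0.08. The list from pyruvate to acetyl-CoA had 1 of 11 higher (Pdp2, a pyruvate dehydrogenase phosphatase, 5.88 against 3.73 CPM) and 0 lower. The list of branch and control genes had 0 of 13 higher and 1 lower, Pfkfb1, at 1.88 and 2.86 CPM. All 8 serine and one-carbon genes were below 0, with a median of -0.35, and 3 of them, against 16% of all genes, were at least 1.5-fold lower: Mthfd1, a folate enzyme (12.7 and 21.9 CPM), and the serine hydroxymethyltransferases Shmt1 (3.29 and 5.60 CPM) and Shmt2 (30.3 and 46.6 CPM). Shmt2, at -0.62 on the log2 scale, falls short of 1.5-fold once the -0.10 scaling factor is taken off. Mthfd1 was below 0 in 7 of 7 clusters, Shmt2 in 6 of 7 and Shmt1 in 3 of the 4 where it was measured, with a range of -1.33 to 1.39.

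The list of other hypoxia-inducible genes had 5 of 21 higher and 1 lower in parous cells, with a median of 0.31, against the all-gene median of -0.12 and the backgrounds of 8.36% and 16%. Hilpda, a lipid droplet protein, stood at 137.4 CPM in parous and 52.7 CPM in virgin cells, 2.61-fold higher, and was above 0 in 7 of 7 clusters, between 0.04 and 1.06 on the log2 scale, all under the pooled value of 1.38. Mxi1, an antagonist of Myc, stood at 49.2 and 20.9 CPM, 2.35-fold higher, and was above 0 in 6 of 7, between -0.31 and 1.21. Ankrd37 (8.63 and 5.48 CPM) and Plod2, a collagen-modifying enzyme (4.94 and 3.09 CPM), were the other higher genes with at least 30 UMIs in 1 library. The gene Stc2 (10 parous and 3 virgin UMIs, log2 interval 0.21 to 4.66) was the fifth, and Adm (2 and 19 UMIs, log2 interval -5.97 to -0.77) was the lower one, both named after their values were seen. In the oxygen sensing list 2 of 11 were higher: Epas1, which encodes HIF-2 alpha, at 5.80 and 3.32 CPM, and Arnt2, named after its values were seen, with 24 and 3 UMIs and a log2 ratio of 3.24 (interval 1.71 to 5.80). Epas1 was above 0 in 3 of 5 clusters.

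Among growth regulators of glycolysis 3 of 15 were higher and 1 lower, against 8.36% and 16% of all genes. Slc3a2, the heavy chain of an amino acid transporter, stood at 352.2 CPM in parous and 189.7 CPM in virgin cells, Odc1, ornithine decarboxylase, at 399.1 and 225.6 CPM, and Rheb, an activator of mTORC1, at 116.9 and 76.7 CPM. Each was above 0 in 7 of 7 clusters, with log2 ratios of 0.16 to 0.59 for Slc3a2, 0.68 to 1.77 for Odc1 and 0.04 to 0.99 for Rheb. For Slc3a2 every one of these clusters lay under its pooled value of 0.89. Myc stood at 40.5 CPM in parous and 110.9 CPM in virgin cells, 2.74-fold lower, and was below 0 in 7 of 7 clusters, between -1.97 and -0.47. In cycling over non-cycling cells the serine and one-carbon list was the one most often higher, with 7 of 8 genes in the parous library and 6 of 8 in the virgin one, and the pentose phosphate list had 3 and 4 of 7, against 26.9% of all genes in the parous library and 24.7% in the virgin one.

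Markers of other cells were also counted in the non-cycling T cells. The 6 adipocyte markers summed to 62.0 CPM in parous and 35.2 CPM in virgin cells, the 6 endothelial markers to 28.1 and 46.8 CPM, the 6 fibroblast markers to 8.47 and 25.9 CPM and the 10 macrophage or dendritic markers to 36.2 and 26.2 CPM. The B cell markers summed to 101.8 and 143.8 CPM, with Cd79a and Ms4a1 at 0 in the parous library. The 9 epithelial or milk markers summed to 13.7 and 5.02 CPM, with Krt8, Krt5, Krt14 and Wap at 0 in both. The milk genes Csn1s1, Csn2 and Csn3 were detected in the parous library and were at 0 in the virgin one. Markers of CD4 T cells summed to 217.4 and 175.4 CPM, of gamma-delta T cells to 12.2 and 4.55 CPM and of erythroid cells to 0.549 and 0.875 CPM. Their part in the member ratios was not tested.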

How the data were processed

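The authors deposited raw UMI counts per gene and barcode for 2 libraries of sorted mouse CD8 T cells (10x 5-prime, per the labels' protocols). They were made with Cell Ranger 7.0.0 on mm10, per the submitters' processing notes, where R 4.4.2 and Seurat appear with no stated use. How barcodes were called as cells was not given in the sources used here. Gene positions come from GENCODE on GRCm38, the assembly mm10 names.

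The cell filter asked for 500 or more genes, 1000 or more UMIs and a mitochondrial share below 10%, and left out 1908 parous and 15 virgin barcodes. Scrublet in scanpy 1.11.5 (expected rate 0.06) marked 2 parous and 11 virgin cells (0.0662% and 0.438%). At under 0.5% it was taken not to have worked, and its calls were kept. For clustering, virgin UMIs were thinned to 58.7%, and receptor, immunoglobulin, ribosomal, mitochondrial, member and pathway-list genes were left out (2000 variable genes, 30 components, 15 neighbours, leidenalg 0.10.2, resolution 0.8). A cluster took a name with at least 3 markers 2-fold above the other cells in at least 10% of its cells, unless markers of some other type outnumbered its own among its 10 leading genes, or none of its own were there. The cluster of other cells (28 parous, 9 virgin) was left out.

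Counts were summed per group and divided by their total (CPM), with exact Poisson intervals. Log2 ratios had 0.5 added to each count and exact conditional binomial intervals, and shares had Clopper-Pearson intervals. Thinning used 1400 UMIs, a depth near the 5th percentile of parous cells. The 2 Aldoa rows were summed. Self-tests on simulated counts checked the ratios. Values in full were to be given for members 1.5-fold apart between libraries, 2-fold apart between cycling and other cells in both libraries, and 8 fixed genes. Further members were named after their values were seen. From each pathway list, up to 4 genes per direction with at least 30 UMIs in 1 library were named. The members and lists were chosen with earlier results of these data known. Software was Python 3.11.15 with scipy 1.17.1, pandas 2.3.3 and numpy 2.4.6. Alternatives covered scaling, depth, filters, cells compared and clustering. One marker gene is not reported here.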

Additional observations from a re-analysis of the deposited data

Results flagged for a closer look

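Aldoa, Tpi1 and Ldha had effects of opposite sign in groups under the same contrast, and none of these differences was tested. Aldoa had a log2 ratio of cycling over non-cycling cells of -0.48 in parous cells and 0.32 in virgin cells, and the intervals excluded 0 on both sides. Tpi1 had a log2 ratio of parous over virgin of 0.73 in the Gzmk cluster 2 (61 parous and 80 virgin UMIs) and -0.54 in cluster 1 (91 and 154 UMIs). Ldha had 0.23 in cluster 2 and -0.14 in cluster 3, the NK or innate-like cells.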

How the results depend on the processing

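Over 16 alternatives to the comparison of parous with virgin non-cycling cells, Hk2 and Vegfa stayed at least 1.5-fold higher and Pfkm at least 1.5-fold lower, and the median log2 ratio of the members ranged between -0.24 and -0.03. Scaling by the median ratio gave 5 higher members (with Bnip3, Pfkfb4 and Slc16a3) and 1 lower. Only 1 was lower over all T cells, without clusters 5 and 6, and with each state weighted the same in both libraries, Pdk1 being lost in each. Tpi1 ranged between -0.26 and 0.26 and Slc16a3 between -0.13 and 0.66. Vegfa ranged between 0.60, just past 1.5-fold, and 1.41. Within clusters, that scaling gave 1 lower in cluster 0, 4 higher in cluster 2 and 2 lower in cluster 3. With the members kept among the genes clustered on, clusters took other cells and gave 6 lower in cluster 1, 1 higher and 2 lower in cluster 2, 4 higher and 4 lower in cluster 7 and 0 lower in cluster 8. In cycling over non-cycling parous cells it gave 3 lower, with Pfkm at 0.25 and Ldhb at 0.65 in place of negative values. Cycling cells chosen by marker UMIs gave 3 lower in the virgin library. In the pathway lists the scaling left 0 lower among branch and control genes and gave 8 higher, with a median of 0.41, among other hypoxia-inducible genes. The cause of these shifts was not tested. Of 152 alternative values of the main results 133 stayed within the reported call or size and 19 moved. Of 540 for single genes 449 stayed, 89 moved and 2 changed sign from a reported value past 1.5-fold. Sign changes of smaller reported values, such as that of Tpi1, are counted among those that stayed or moved. No doublet calls were removed, because Scrublet marked too few cells to be relied on. The doublet setting, counted among the 16 alternatives, therefore repeated the reported values by construction and tested nothing. Its values are included among those that stayed. Leaving out naive cells among the non-cycling cells, alone or with the low-RNA cluster, and the mean core count in place of the median were chosen after seeing the data. Single genes beyond the naming rule (Mif, Aldoa, Pfkfb4, Eno3, Pgk1, Ldhb, P4ha1, Pfkfb3) were added to these checks after their values were seen. No paired analysis was possible because each group has 1 library, and no replicate could be left out. Depth limits the values from the 59 parous cycling cells and from members under 100 UMIs.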

Other observations

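The 1908 parous barcodes that failed the cell filter had a median of 600 UMIs, and their core sum stood at 2668 CPM (interval 2577 to 2761). The 15 such virgin barcodes stood at 1938 CPM (interval 1242 to 2884). Outside the alternative with a looser cell filter, these barcodes entered no comparison of the report.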
